A study of Danio rerio with 8 samples.

Results

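The cell cycle genes ccna2 (NM_152949) and mcm5 (NM_178436) were followed in whole wildtype zebrafish (Danio rerio) embryos. These are 2 of the 2650 genes with a symbol on the array, and each has 1 row among the 37157 rows. Expression was measured in normoxic and hypoxic gastrulae (shield stage, 6 h of development) and in normoxic and hypoxic 8-somite embryos (segmentation, 12 h). Each sample pooled 12 to 15 dechorionated embryos picked by hand for a matched stage. Hypoxic embryos spent 1 to 2 h in water equilibrated with nitrogen to under 1% oxygen. Values were available for 2 normoxic and 2 hypoxic gastrula samples, 2 normoxic 8-somite samples and 1 hypoxic 8-somite sample. The table held 0 values for the second hypoxic 8-somite sample, which was not analysed here. The labels name no strain beyond wildtype.

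The pair was chosen by measured values of these arrays, ccna2 by its difference between the stages in normoxia and mcm5 by its difference between hypoxic and normoxic gastrulae. Those contrasts are therefore given for these genes as descriptions, without a test. Tests are given for the other contrasts. The stage difference of ccna2 under hypoxia and the 8-somite hypoxia difference of mcm5 compare only arrays that the choice did not use, whereas the other contrasts tested share gastrula or normoxic arrays with it, so their p-values are not independent of the choice. The difference between the hypoxia differences of the stages contains the value each gene was chosen by, and it is given without a test.

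Cyclin A2, the product of ccna2, binds the cyclin-dependent kinases that drive DNA replication and entry into mitosis, and it is destroyed by the anaphase-promoting complex as mitosis proceeds. Mcm5 is a subunit of the hexameric MCM helicase, which is loaded on replication origins in G1 and unwinds DNA ahead of the fork in S phase. The earliest divisions of the zebrafish embryo are fast, lack gap phases and run on maternal mRNA, and cycles lengthen once the embryo transcribes its own genome. Zebrafish embryos deprived of oxygen are known to slow or halt development and division.

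Values are RMA values on the log2 scale, as inferred from their range of 6.85 to 15.96. Array medians lay between 8.51 and 8.74. The interquartile range was 2.18 to 2.31 on the hypoxic gastrula arrays and 2.51 to 3.02 on the others. When rows were split into 10 bins of near equal size, from dim to bright, the gastrula hypoxia difference had a median of 0.20 in bin 5, -0.56 in bin 9 and -0.20 in bin 10. Of the stage markers measured (3 of 13 and 6 of 10 listed), 2 of 3 early genes were lower and 4 of 6 somite and muscle genes were higher at 8 somites past the threshold, against 3.88% and 6.21% of all rows. The summed level of the 3 early genes (nanog, sox19b and osr1) was 36.6 to 37.4 in normoxic and 32.5 to 33.7 in hypoxic gastrulae, and 31.0 to 32.5 at 8 somites, so it was lower in hypoxic gastrulae as well. Of 6 listed yolk and enveloping layer genes 3 were measured. Their summed level was 39.8 to 40.7 in normoxic and 41.9 to 42.7 in hypoxic gastrulae. Of these, agr1 and fabp1b.1 were higher in hypoxic gastrulae (1.27 and 0.96) and krt97 was lower (-0.16). For the 6 somite and muscle genes the summed level was 59.9 to 62.2 in normoxic and 59.7 to 62.2 in hypoxic gastrulae. The part of these shifts in the results for ccna2 and mcm5 was not tested.

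In ccna2, the values at 8 somites lay far below those at the gastrula stage with and without oxygen. The normoxic gastrula samples read 15.61 and 15.86, and the normoxic 8-somite samples 13.74 and 14.00. The hypoxic gastrula samples read 15.45 and 14.93, and the single hypoxic 8-somite sample 13.71. All 4 gastrula arrays were thus above all 3 arrays at 8 somites, and the lowest gastrula value was that of hypoxic replicate 2. Of all rows, 28.8% had both normoxic 8-somite values below both normoxic gastrula values, and 48.4% had the hypoxic 8-somite value below both hypoxic gastrula values. The share with all gastrula values above all 8-somite values was not counted.

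By group, ccna2 averaged 15.73 ± 0.18 (SD, n = 2) in normoxic gastrulae, 15.19 ± 0.37 (n = 2) in hypoxic gastrulae and 13.87 ± 0.19 (n = 2) in normoxic 8-somite embryos. The order of the levels was normoxic gastrula, hypoxic gastrula, normoxic 8-somite and hypoxic 8-somite. The gap between the last 2 groups was 0.16, less than the SD of the normoxic replicates. The gap of 0.54 between the gastrula groups exceeded both SDs, each from 2 arrays. Their values did not overlap, with the hypoxic ones lower, as for 29.8% of all rows.

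**Figure D1:**
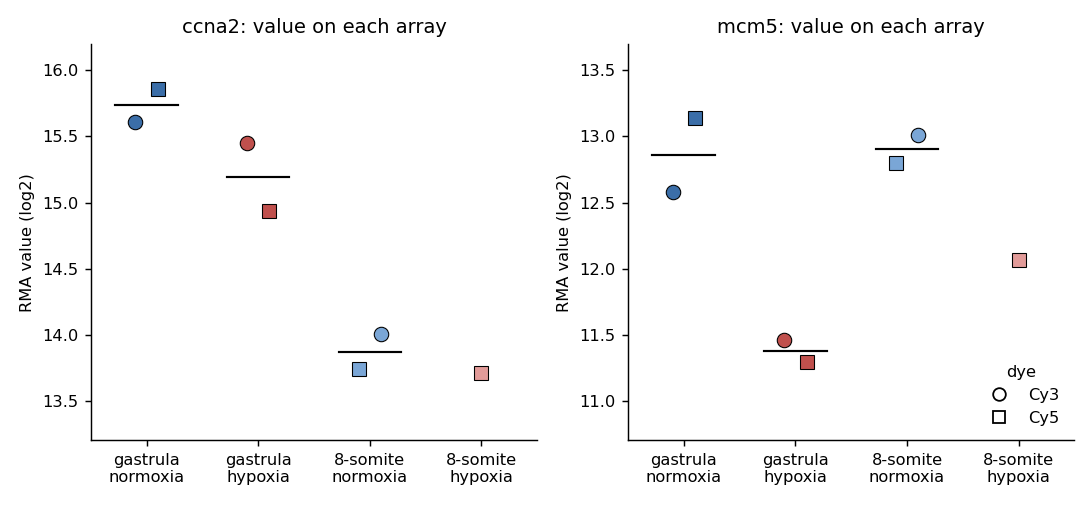
Values of ccna2 (left) and mcm5 (right) on the 7 arrays with values, in log2 RMA units, by stage and oxygen. Points are single arrays (circles Cy3, squares Cy5) and bars are means of 2 arrays; ccna2 separates by stage (13.71 to 14.00 against 14.93 to 15.86), whereas mcm5 is low on the hypoxic arrays (11.29, 11.46 and 12.07 against 12.58 to 13.14).

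The stage difference of ccna2 in normoxia, for which it was chosen, was -1.86 ± 0.25 (SE) on the log2 scale, a 3.64-fold lower level at 8 somites. Within Cy3 the difference was -1.61 and within Cy5 -2.12. Of all rows, 1.77% had a difference as low or lower. In this contrast 10.1% of rows passed an adjusted p of 0.05.

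The same stage difference under hypoxia compares 3 arrays that the choice did not use, 2 hypoxic gastrula samples and 1 hypoxic 8-somite sample. There ccna2 was lower at 8 somites by -1.40 ± 0.32 (2.63-fold; 95% interval -2.23 to -0.57), which did not pass over all rows (limma adjusted p = 0.129). In this contrast 2.4% of rows passed, and 1.73% of rows had a value as low or lower. Without normoxic gastrula replicate 1 the difference was -1.29. Leaving out replicate 2 instead is the same fit for this contrast, so it adds no second check. Leaving out either normoxic 8-somite replicate likewise gives the same fit, with -1.42. The alternatives below count both fits of each pair, and also the main fit read at an adjusted p of 0.1. Over 17 alternatives the adjusted p ran from 0.0469 to 0.465 and the difference from -1.74 to -1.23. As the group at 8 somites is a single array, its spread was assumed to equal that of the other groups. The residual spread and the dye adjustment came from all 7 arrays, including those the choice used. Without dye the difference was -1.49.

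The hypoxia difference of ccna2 did not pass the test at either stage. In gastrulae it was -0.54 ± 0.25 (1.45-fold lower; 95% interval -1.18 to 0.10; limma adjusted p = 0.243), with -0.16 within Cy3 and -0.93 within Cy5. Both hypoxic arrays lay below both normoxic ones, as they did for 29.8% of all rows. The choice of ccna2 used the normoxic gastrula arrays and favoured high values on them, so this contrast is not independent of it. Without normoxic gastrula replicate 2 the difference was -0.22, and without replicate 1 it was -0.86. The value in the Cy3 pair was smaller than the SD of either group, and the larger value in the Cy5 pair came with the lower of the hypoxic arrays.

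At 8 somites the hypoxia difference of ccna2 was -0.08 ± 0.32 (95% interval -0.90 to 0.75; limma adjusted p = 0.9999). It was -0.03 within Cy5, and 0.04 after the rows were quantile normalized again. A change of ccna2 under hypoxia at this stage was not detectable with these arrays, and the interval holds differences as large as that seen in gastrulae. The choice of ccna2 used the normoxic 8-somite arrays and favoured low values on them, so this contrast is not independent of it either. The 8-somite minus the gastrula hypoxia difference of ccna2 was 0.47 ± 0.41, as a description.

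The ccna2 row was among the brightest on each gastrula array. Its value lay 0.10 and 0.35 below the highest value of the array in the normoxic samples and 0.44 and 1.03 below it in the hypoxic samples, with 58 to 461 rows above it. At 8 somites the distance was 1.94 to 2.22. The array maxima themselves were close to each other, from 15.85 to 15.96, and whether bright signals were limited there was not tested.

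In mcm5, the hypoxic arrays read lower than the normoxic arrays at both stages, and the normoxic stages were alike in level. The normoxic gastrula samples read 12.58 and 13.14, and the hypoxic gastrula samples 11.46 and 11.29. The normoxic 8-somite samples read 12.80 and 13.01, and the hypoxic 8-somite sample 12.07. Every hypoxic array was below every normoxic array, with a gap of 0.51 between the highest hypoxic and the lowest normoxic value. Of all rows, 29.8% had both hypoxic gastrula values below both normoxic ones, the contrast that mcm5 was chosen by. At 8 somites 38.4% had the hypoxic value below both normoxic ones. The share of rows with both traits was not counted, nor was the share with every hypoxic value below every normoxic one. The gastrula arrays in that comparison were those that mcm5 was chosen by.

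By group, mcm5 averaged 12.91 ± 0.15 (SD, n = 2) in normoxic 8-somite embryos, 12.86 ± 0.39 (n = 2) in normoxic gastrulae and 11.38 ± 0.12 (n = 2) in hypoxic gastrulae. The order of levels was normoxic 8-somite, normoxic gastrula, hypoxic 8-somite and hypoxic gastrula. The normoxic groups overlapped and differed by 0.04, less than the SD of either. The next gap, to the hypoxic 8-somite array, was 0.79, and the last was 0.69.

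The gastrula hypoxia difference of mcm5, for which it was chosen, was -1.48 ± 0.26 (SE), a 2.80-fold lower level. It was -1.12 within Cy3 and -1.85 within Cy5. Rows of its brightness were lower as a whole in hypoxic gastrulae, with a median of -0.56 in its level bin, and after quantile normalization of the rows again the difference of mcm5 was -1.0 and the median of that bin -0.08. Among all rows, 3.72% had a difference as low or lower. In this contrast 0% of rows passed in limma with dye as a covariate, and 8.14% passed without it.

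The hypoxia difference at 8 somites compares 3 arrays that the choice of mcm5 did not use. It was -0.87 ± 0.34 (1.82-fold lower; 95% interval -1.74 to 0.0072), with a limma adjusted p of 0.708 over all rows. Its level bin had a median of -0.24 in this contrast. The difference of mcm5 was -0.84 without dye, -0.74 after quantile normalization again and -0.73 within Cy5. Over 17 alternatives the value ran from -1.14 to -0.73 and the adjusted p from 0.376 to 1. The difference was downward at each setting run but did not pass at any of them. Several of these settings are the same fit for this contrast, and each rests on the single hypoxic array. In the main fit the residual spread and the dye adjustment came from all 7 arrays, including those the choice used. Of all rows, 4.98% were as low or lower, and 38.4% had the hypoxic array below both normoxic ones. In this contrast 0% of rows passed with dye and 0.0242% without.

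The 8-somite minus the gastrula hypoxia difference of mcm5 was 0.62 ± 0.43, and 0.26 after quantile normalization again, as a description. In normoxia the stage difference of mcm5 was 0.04 ± 0.26 (95% interval -0.63 to 0.72; limma adjusted p = 0.983). It was 0.43 within Cy3 and -0.34 within Cy5, and -0.33 without normoxic gastrula replicate 1. Under hypoxia it was 0.66 ± 0.34 (limma adjusted p = 0.455), and 0.36 after quantile normalization again. These contrasts share arrays with the gastrula hypoxia comparison, the normoxic and the hypoxic gastrula samples respectively.

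**Figure D2:**
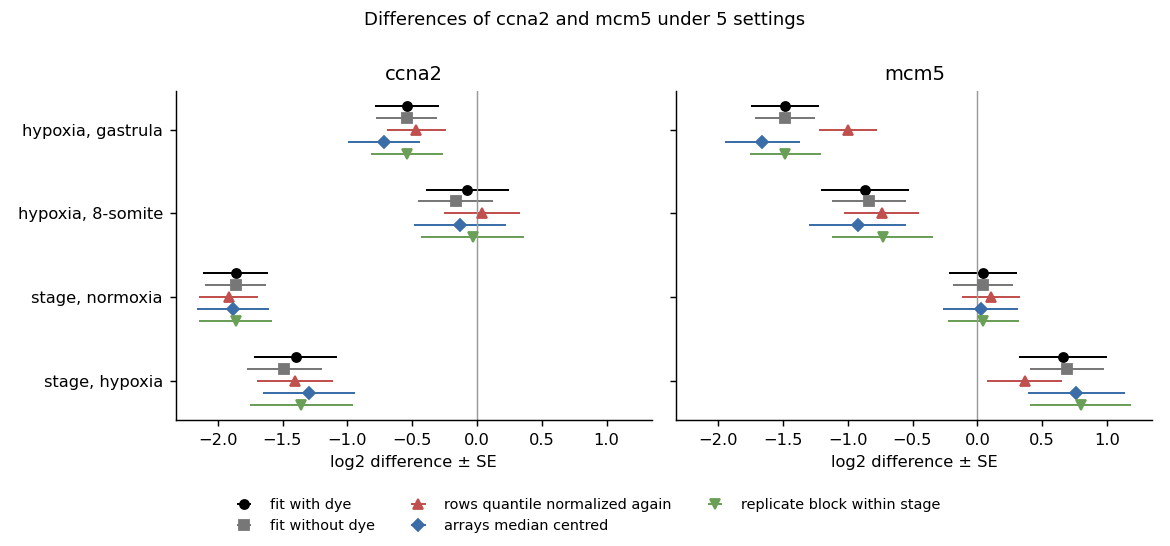
Log2 differences of ccna2 (left) and mcm5 (right) for hypoxia at each stage and for stage (8-somite minus gastrula) in each oxygen condition, under 5 settings given by colour and marker. Bars are standard errors; the hypoxia difference of mcm5 in gastrulae moved from -1.48 to -1.0 after quantile normalization again, whereas the stage difference of ccna2 in normoxia stayed between -1.92 and -1.86.

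The relation of the hypoxia difference to brightness is shown in the plot of the gastrula difference against level. The ccna2 difference of -0.54 stood beside a median of -0.20 for its bin, and that of mcm5 beside -0.56. After quantile normalization again these medians were 0.03 and -0.08, and the differences of ccna2 and mcm5 were -0.47 and -1.0. Centring each array on its median instead moved the median of all rows from 0.01 to -0.16, and gave -0.72 for ccna2 and -1.66 for mcm5.

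**Figure D3:**
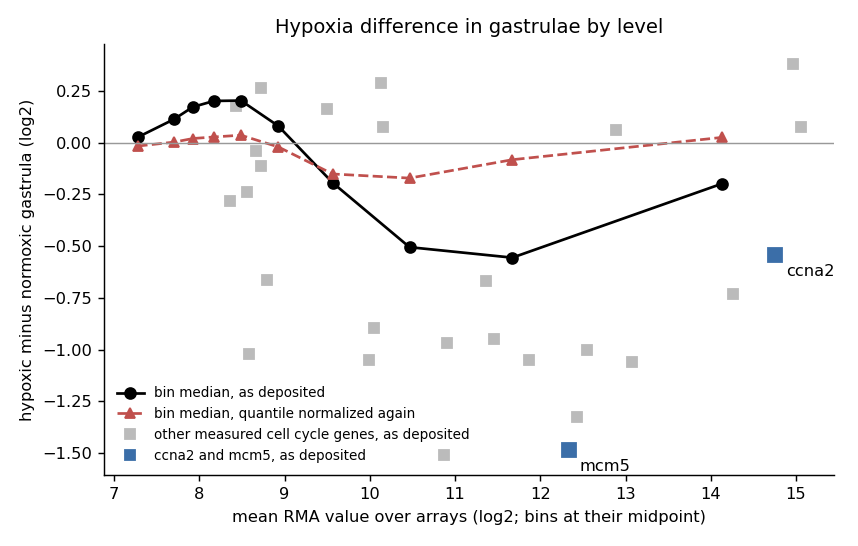
Gastrula hypoxia difference (log2) against mean level over the arrays (log2), with the median of all rows in each of 10 level bins as deposited (black) and after quantile normalization again (red). Squares are measured cell cycle genes as deposited; mcm5 lies at -1.48 in a bin with a median of -0.56, and ccna2 at -0.54 in a bin with a median of -0.20.

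The other cell cycle genes were taken from 8 lists by role, with 309 symbols in all, of which 27 were measured, ccna2 and mcm5 included. In the gastrula hypoxia comparison 19 of the 27 lay below 0, with a median of -0.66, against 48.5% of all rows and a median of 0.01. In the bright bins 8, 9 and 10, which hold many of these genes, 72.7%, 75.8% and 64.7% of all rows lay below 0, near the 70.4% that 19 of 27 make. Of the 27 genes, 20 lay below the median of their own bin, and after quantile normalization again 19 lay below 0 with a median of -0.47, against 51.4% of all rows. In limma with dye 0 of 27 passed, as did 0% of all rows. At an unadjusted p under 0.05, 12 were lower and 0 higher, where 15.8% of all rows were lower and 11% higher. Apart from mcm5, which was chosen by this contrast, the only gene to pass without dye was mcm10, which was lower, against 5.44% of all rows. Leaving out ccna2 and mcm5, 17 of 25 lay below 0, and 11 were lower at an unadjusted p under 0.05. In bulk embryos, fewer cells with a transcript and less of it per cell cannot be told apart.

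Of origin licensing and helicase genes, orc2, mcm10 and mcm5 had both hypoxic gastrula values below both normoxic ones, as 29.8% of all rows did, and mcm5 was chosen by this contrast. The replication initiation factor gene mcm10 read 11.49 and 12.04 in normoxic and 10.54 and 9.97 in hypoxic gastrulae, a difference of -1.51 ± 0.32 (limma adjusted p = 0.080). At 8 somites mcm10 read 10.78 and 11.10 in normoxia and 10.14 in hypoxia. The hypoxic values of mcm10 lay below the normoxic ones at each stage, as those of mcm5 did. At 8 somites 38.4% of all rows had the hypoxic value below both normoxic ones.

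The origin recognition complex subunit gene orc2 differed by -0.89 ± 0.26 between hypoxic and normoxic gastrulae, and by -0.54 ± 0.34 at 8 somites. The gene gins3, for a subunit of the GINS complex that joins Mcm proteins in the active helicase, differed by 0.06 ± 0.21 and 0.43 ± 0.28. Between the normoxic stages mcm10 and gins3 differed by -0.83 ± 0.32 and -0.46 ± 0.21, and orc2 by 0.48 ± 0.26. None of these passed over all rows.

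The 3 measured genes of the replication fork also lay below 0 in hypoxic gastrulae. The clamp loader gene rfc5 read 13.41 and 13.30 in normoxic and 12.48 and 12.11 in hypoxic gastrulae, a difference of -1.06 ± 0.21 (limma adjusted p = 0.077). The other clamp loader gene, rfc2, differed by -1.0 ± 0.30, and chaf1a, for the large subunit of the chromatin assembly factor that works at the fork, by -0.67 ± 0.23. For these 3 genes the hypoxic gastrula values lay wholly below the normoxic ones, as they did for 29.8% of all rows.

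Over both replication lists, 6 of 7 genes lay below 0 in hypoxic gastrulae with a median of -1.0. Of all rows in bins 8, 9 and 10, which hold these genes, 72.7%, 75.8% and 64.7% lay below 0. The medians there were -0.50, -0.56 and -0.20. In 6 of 7, mcm5 among them, the hypoxic values lay wholly below the normoxic ones, against 29.8% of all rows. After quantile normalization again 6 of 7 lay below 0 with a median of -0.66. Without mcm5, which was chosen by this contrast, each of these counts was 5 of 6. The medians were then -0.95 as deposited and -0.61 after quantile normalization again. At 8 somites 6 of 7 lay below 0 with a median of -0.48, and -0.22 after quantile normalization again. In that contrast 51.7% of all rows lay below 0, as did 69.2%, 67.3% and 58.5% of those in bins 8, 9 and 10.

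Among cyclins and their kinases, 1 gene of 4, ccna2, had hypoxic gastrula values wholly below the normoxic ones, a share near the 29.8% of all rows. The G1 cyclin gene ccnd2a read 8.68 and 8.81 in normoxic gastrulae and 9.78 and 10.91 in normoxic 8-somite embryos, a stage difference of 1.60 ± 0.33 (limma adjusted p = 0.0502). Its stage difference under hypoxia was 1.82 ± 0.43. The direction of ccnd2a between the stages was opposite to that of ccna2, on the normoxic and on the hypoxic arrays. The kinase gene cdk4 and pkmyt1, for an inhibitory kinase of Cdk1, differed by 0.18 ± 0.26 and -0.11 ± 0.19 with hypoxia in gastrulae. The median of all rows in the level bin of cdk4 was 0.20 in that contrast. Between the normoxic stages cdk4 and pkmyt1 differed by -0.08 ± 0.26 and 0.48 ± 0.19.

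Of the transcription factors of the cycle, e2f3, an activator of genes for S phase, differed by -1.33 ± 0.40 with hypoxia in gastrulae and by -1.15 ± 0.40 between the normoxic stages. Foxm1, a factor of G2 and mitotic genes, differed by 0.26 ± 0.18 and -0.06 ± 0.18 in these contrasts, and lin54, a DNA-binding subunit of the complex that represses or activates cell cycle genes, by 0.29 ± 0.20 and -0.25 ± 0.20. Neither e2f3 nor the others passed over all rows.

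For mitosis, all 4 measured genes of kinetochore and spindle lay below 0 in hypoxic gastrulae, as did 48.5% of all rows. In bins 9 and 8, which hold cenpl and haus5, 75.8% and 72.7% of rows did. In bin 5, which holds haus3 and haus6, 35.3% did. The centromere protein gene cenpl read 12.64 and 13.29 in normoxic and 12.18 and 11.64 in hypoxic gastrulae, a difference of -1.05 ± 0.38. Its normoxic 8-somite values were 10.95 and 11.70, a stage difference of -1.64 ± 0.38 (limma adjusted p = 0.066). Like ccna2, cenpl was lower on each normoxic 8-somite array than on each normoxic gastrula array, as were 28.8% of all rows. In contrast to ccna2, cenpl read higher in normoxic 8-somite replicate 2 (11.70) than in hypoxic gastrula replicate 2 (11.64). The augmin subunit genes haus5, haus6 and haus3, for nucleation of spindle microtubules, differed by -0.97 ± 0.24, -0.28 ± 0.24 and -0.24 ± 0.19 with hypoxia. For haus6 the difference was 0.06 within Cy3 and -0.62 within Cy5.

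The ubiquitin enzyme gene ube2c, which acts with the anaphase-promoting complex on mitotic cyclins, read 15.12 and 14.76 in normoxic and 15.41 and 15.23 in hypoxic gastrulae, a difference of 0.38 ± 0.19 (limma adjusted p = 0.275). As deposited, ube2c had the highest gastrula hypoxia difference of the 27 genes. After quantile normalization again lin54 (0.69) was above ube2c (0.48). The cullin gene cul4a differed by -0.66 ± 0.28.

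Among genes of chromosome structure, the cohesin subunit gene rad21a and slbp2, for a protein that binds histone mRNA, differed by -0.73 ± 0.27 and -1.02 ± 0.33 with hypoxia in gastrulae, and by -0.78 ± 0.27 and -1.16 ± 0.33 between the normoxic stages. The gene banf1, for a small chromatin protein of the nuclear envelope, differed by 0.08 ± 0.19 and 0.05 ± 0.19. In the checkpoint and p53 list, xrcc5, for a DNA end-binding repair protein, differed by -1.05 ± 0.28 with hypoxia in gastrulae. The p53 target of apoptosis pmaip1 differed by -0.95 ± 0.46, with 0.0028 within Cy3 and -1.90 within Cy5. In the same contrast rad52, of recombination, differed by 0.07 ± 0.18, and the stress gene sesn2 by -0.04 ± 0.21.

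Between the normoxic stages 17 of the 27 genes lay below 0, with a median of -0.24, against 59.8% of all rows and a median of -0.06. Apart from ccna2, which was chosen by this contrast, 0 genes passed the threshold, against 3.88% of all rows lower and 6.21% higher. At an unadjusted p under 0.05 in limma, 7 were lower, ccna2 among them, and 1 higher, against 11.3% and 12.3%. With hypoxia at 8 somites, 51.7% of all rows lay below 0. In bins 8, 9 and 10 the shares were 69.2%, 67.3% and 58.5%, with medians of -0.28, -0.24 and -0.08. In bins 5, 6 and 7, which hold the rest of the 27 genes, the shares were 42.1%, 49.1% and 60.1%. At 8 somites 20 of 27 lay below 0 with hypoxia, with a median of -0.25, 0 passed, and 0 had an unadjusted p under 0.05 in limma. The share of all rows at that unadjusted p was 4.62% lower and 2.47% higher.

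**Figure D4:**
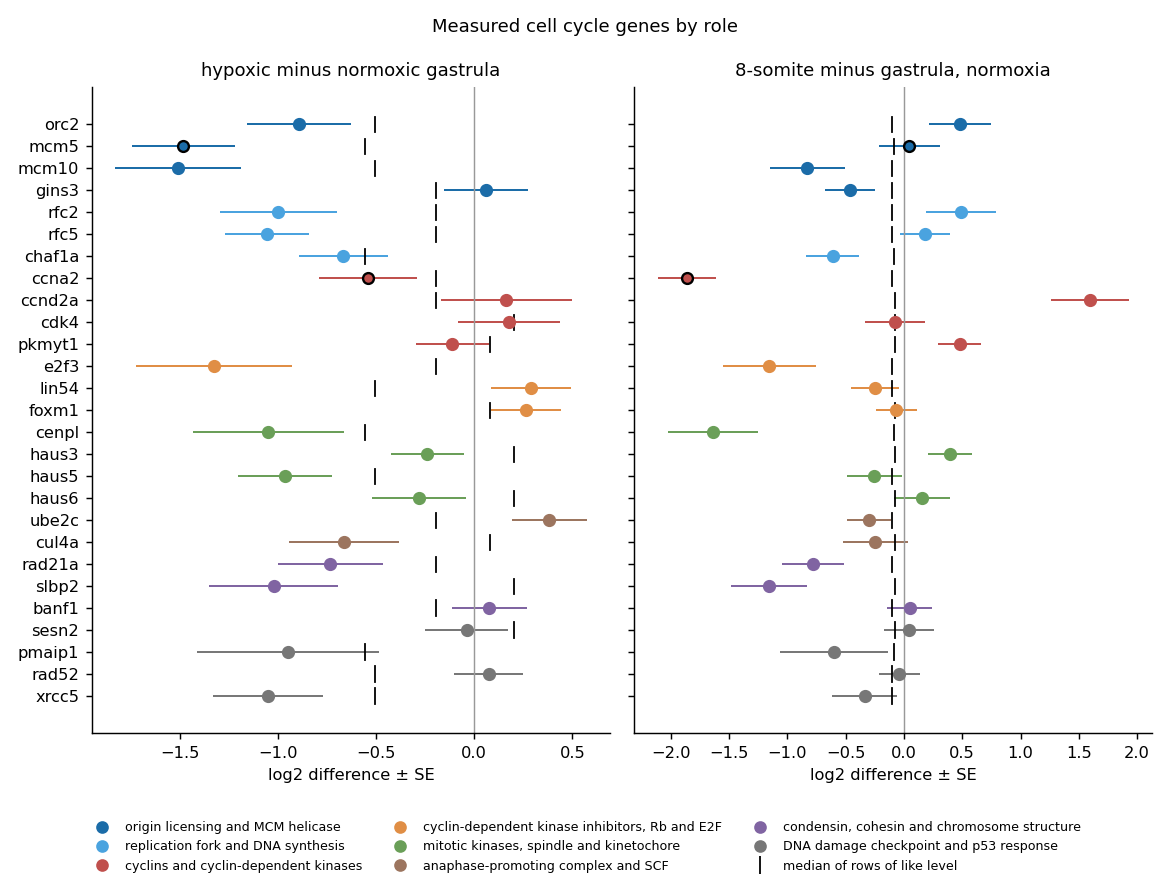
Log2 differences with standard errors for the 27 measured cell cycle genes, by role, for hypoxic minus normoxic gastrula (left) and for 8-somite minus gastrula in normoxia (right). Black ticks mark the median of all rows in the gene's level bin and black rings mark ccna2 and mcm5; in gastrulae 19 of 27 lie below 0, and between the stages ccna2 has the lowest value (-1.86) and ccnd2a the highest (1.60).

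The genes with a pattern most like that of ccna2 were sought among 1022 genes with a symbol whose range over the 7 arrays was at least 1.08, the minimum set from its own range of 2.15. The measure was Pearson's r over the arrays, which share stage and oxygen groups, and it is given as a description. The highest was fut9b.1, for a fucosyltransferase, with r = 0.998 and the same rank order on all arrays. Its group means were 13.97 in normoxic and 13.35 in hypoxic gastrulae, 11.59 in normoxic 8-somite embryos and 11.22 in the hypoxic one. The next were pitpnc1b (0.983), for a phosphatidylinositol transfer protein, smcr8b (0.983), of an autophagy complex, prdx6 (0.982), a peroxiredoxin gene, and map1lc3b (0.981), of autophagosome membranes.

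Most opposed to ccna2 were rassf6 (r = -0.991), zgc:113184 (-0.975) and the forebrain factor gene fezf2 (-0.970), which were lowest in normoxic gastrulae. After quantile normalization again fut9b.1 still ranked highest, and 2 of the 5 most alike genes were shared. Of the measured cell cycle genes, cenpl had the highest r with ccna2 (0.922, place 40), and ccnd2a was at -0.841. The r between ccna2 and mcm5 was -0.10.

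For mcm5, 1218 genes with a range of at least 0.92 were compared. Among the 5 most alike were samm50l (r = 0.982), related to a mitochondrial outer membrane assembly factor, ltv1 (0.981), of small ribosomal subunit assembly, calub (0.980), for an endoplasmic reticulum calcium-binding protein, and aip (0.980), for a cochaperone. The group means of ltv1 were 10.80 and 9.50 in normoxic and hypoxic gastrulae and 11.15 and 10.08 at 8 somites. The most opposed were osr2 (-0.994), nyx (-0.993) and zgc:110045 (-0.988), which were highest in hypoxic gastrulae.

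This list depends on the scaling, since after quantile normalization again 0 of the 5 genes most alike to mcm5 remained among the first 5, and ltv1 stood at place 7 with r = 0.960. After median centring all 5 remained. Among cell cycle genes the highest r with mcm5 were those of xrcc5 (0.912), haus5 (0.908), rfc5 (0.904) and orc2 (0.896), which became 0.745, 0.673, 0.798 and 0.806 after quantile normalization again.

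**Figure D5:**
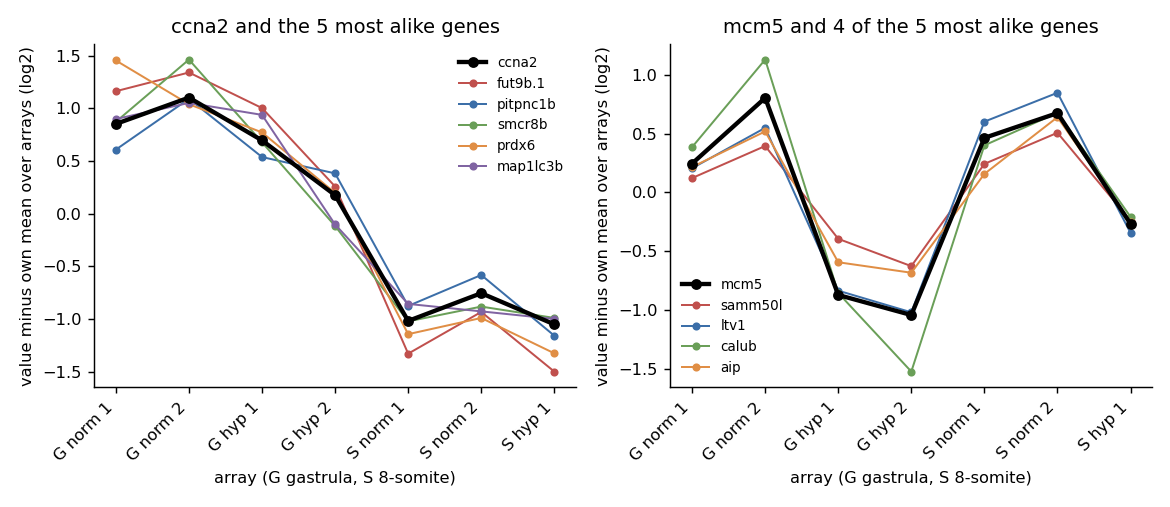
Values minus each gene's mean over the 7 arrays (log2) for ccna2 (left) and mcm5 (right), in black, with 5 genes (left) and 4 genes (right) from the 5 of highest Pearson's r in colour; lines join arrays for reading only. The ccna2 set runs from high in gastrulae to low at 8 somites, and the mcm5 set dips on the hypoxic gastrula arrays and less on the hypoxic 8-somite array.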

How the data were processed

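The deposited values are taken as log2 values from their range; the authors made them with RMA, of no stated version, per the submitters' processing notes. The array design was not given in the labels. Per the labels' protocols, TRIzol total RNA was turned into cDNA carrying Cy3 or Cy5, 1 sample of each dye per full group. Rows were named by RefSeq transcript, without versions, through a gene table of assembly GRCz12tu: 2663 of 3055 such rows matched. Where several rows shared a symbol, the row of highest mean was used.

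All 37157 rows were fitted in limma 3.58.1 (R 4.3.3) with 4 groups and dye over 7 arrays (2 residual and 2.92 prior degrees of freedom), two-sided, with Benjamini-Hochberg adjustment at 0.05. The fit was checked on simulated data for the normoxic stage contrast only. Those data had the same independent spread for all rows and no dye or level-dependent shift. Differences are adjusted for dye, errors are SE, and the number of arrays limits precision. The design text calls replicates biological but does not say how they were separated, so p-values cover only the spread of these samples. Members and gene lists were chosen with earlier results of these data known. All measured genes of each list were named, and for likeness the 5 highest and 3 lowest Pearson's r, except 1 gene for mcm5 that is not reported here. Deviations of same-numbered samples correlated at -0.15 between the gastrula groups and 0.54 between the normoxic groups. Between hypoxic gastrulae and normoxic 8-somite embryos the value was -0.27, and no pairing was used. Replicate 1 carried Cy3 in both gastrula groups and Cy5 in normoxic 8-somite embryos. In gastrulae, values within a dye are thus also values within a replicate number. Whether the groups shared a dye shift, and the need for the dye term, were not tested. Alternatives were a fit without dye, replicate blocks, other scalings, filters and variance priors, fewer arrays and an adjusted p of 0.1.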

Additional observations from a re-analysis of the deposited data

How the results depend on the processing

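Of the values for ccna2 and mcm5, those of the gastrula hypoxia difference, the stage difference under hypoxia and the difference between the responses kept their direction under each alternative. The ccna2 hypoxia difference at 8 somites turned to 0.041 after quantile normalization again and ranged from -0.16 to 0.031 over arrays left out, the 0.031 without either normoxic gastrula replicate. The mcm5 stage difference in normoxia ranged from -0.33 to 0.42 over arrays left out, and was -0.16 without normoxic 8-somite replicate 2. The ccna2 stage difference in normoxia ranged from -2.18 to -1.54 over arrays left out, and under hypoxia from -1.74 to -1.23. The mcm5 gastrula difference was -1.0 after quantile normalization again and ranged from -1.86 to -1.11 over arrays left out.

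The gastrula hypoxia comparison had 0 rows past the threshold with dye. It had 3025 without dye, 1375 with the replicate number over both stages as a replicate block, 2002 with the dimmest 25% of rows left out, 1300 after median centring, 1712 with an intensity trend, 4287 at an adjusted p of 0.1, and 0 to 8275 over arrays left out. With the replicate block within stage it had 0, mcm5 was -1.48 and ccna2 -0.54. In gastrulae this block divides the arrays as the dye does. Deviations of same-numbered samples correlated at -0.15 between the gastrula groups, 0.54 between the normoxic groups and -0.27 between hypoxic gastrulae and normoxic 8-somite embryos, so the numbers were not taken to pair the samples, and a crossed pairing of the gastrula groups, added after seeing the data, gave 5348 rows. The 8-somite hypoxia comparison had 9 rows without dye. The stage comparison in normoxia had 3749 rows, 5847 at an adjusted p of 0.1, and 619 to 6036 over arrays left out. Under hypoxia it had 890 rows, 1555 without dye, 0 with the replicate block within stage, 0 in the 3 hypoxic arrays alone, 1734 at an adjusted p of 0.1, and 0 to 2568 over arrays left out. The cause of these shifts was not tested. A fit of the compared groups alone was not run for the difference between the responses, which uses all groups. The single hypoxic 8-somite array sets the precision at that stage.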
